A study of Mus musculus with 8 samples.

Results

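A set of 10 genes of white and brown adipocytes, Fabp4, Adipoq, Plin1, Plin4, Cfd, Car3, Cidec, Lep, Retn and Ucp1, was followed through the lumbar spinal cord RNA of 8 mice. They are 10 of the 55291 genes in the count table and were picked by gene symbol. They were chosen by adipocyte identity after earlier results of these counts had shown several of them high in a control library, so their levels and their contrast between genotypes are given as a description. All 8 mice were male SOD1G93A mice of the C57BL/6J strain, a transgenic model of amyotrophic lateral sclerosis, which carried Cx3cr1 Cre/+ and received tamoxifen, at 12 weeks by the labels and at a slightly later age by the methods of the study. The 4 mice with Ager deletion were Ager fl/fl (E1776, E5231, E5248, E5568) and the 4 Cre-controls were Ager +/+ (E5386, E5642, E6578, E6732), so that the groups differed in whether the receptor RAGE, the product of Ager, could be lost. Cx3cr1 drives Cre in microglia and also in other myeloid cells, and the RNA came from whole cord tissue, not from sorted cells. The labels give an age of 120 days, whereas the Results of the study describe the sequenced cord tissue as end-stage.

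Adipocytes store triglyceride in lipid droplets coated by perilipins and release fatty acids by lipolysis. White adipocytes hold a single large droplet and secrete hormones such as leptin, while brown adipocytes hold many small droplets and burn fatty acids for heat through UCP1, a proton channel of the inner mitochondrial membrane. In bulk RNA, fewer cells of a type and less RNA per cell cannot be told apart.

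To show what lies upstream of the genes that separate the types of fat, the 250 bases before the RefSeq start of Ucp1 (brown), Adipoq (all adipocytes) and Lep (white) are printed 5′ to 3′ on the gene's strand. RefSeq, on GRCm38.p6, gave windows for 8 of the 10 genes. The windows are chr8:83290098-83290347, chr16:23146286-23146535 and chr6:29059971-29060220, all on the plus strand. Capitals mark matches, on either strand, to TATAAA, to AGGTCA (the core element of nuclear receptors), to TTGCGCAA (a C/EBP element) or to CCAAT, and no match overlapped another.
Ucp1: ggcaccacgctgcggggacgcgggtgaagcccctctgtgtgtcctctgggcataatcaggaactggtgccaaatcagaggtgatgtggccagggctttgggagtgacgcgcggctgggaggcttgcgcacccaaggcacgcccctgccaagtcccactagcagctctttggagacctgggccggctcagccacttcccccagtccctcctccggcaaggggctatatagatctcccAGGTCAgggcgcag
Adipoq: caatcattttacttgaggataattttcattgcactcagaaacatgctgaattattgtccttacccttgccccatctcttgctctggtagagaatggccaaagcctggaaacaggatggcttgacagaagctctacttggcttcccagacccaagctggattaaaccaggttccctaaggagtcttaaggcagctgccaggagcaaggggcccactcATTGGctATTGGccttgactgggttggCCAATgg
Lep: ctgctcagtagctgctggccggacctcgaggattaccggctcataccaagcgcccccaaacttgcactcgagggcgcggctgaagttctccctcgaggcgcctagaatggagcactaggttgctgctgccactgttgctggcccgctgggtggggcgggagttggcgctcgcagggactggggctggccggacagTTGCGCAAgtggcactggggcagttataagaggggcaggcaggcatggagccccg
The Ucp1 window held a single AGGTCA, whose first base lay 14 bases before the start. The Adipoq window held 3 CCAAT elements, at 34, 27 and 7 bases, and the Lep window a TTGCGCAA at 55 bases. Among all 32851 windows of this length, 14.0% held AGGTCA, 33.8% CCAAT, 12.4% TATAAA and 0.164% TTGCGCAA. These matches describe the letters and not the binding of a factor.

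Totals of 31148047 to 40324897 counts per library were assigned to genes, and 3 counts, taken as the floor, equal 0.0729 to 0.0974 CPM (counts for each 1e6 counted reads, scaled by TMM, the trimmed mean of M values). Intervals and floors cover counting error only. Ager, the targeted gene, lay between 0.888 and 1.51 CPM under Ager deletion and between 1.53 and 2.40 CPM in the Cre-controls (log2 fold change 0.81, adjusted p = 0.252, edgeR exact test). The 10 spinal cord markers summed to between 27710 and 33290 CPM, so each library carried spinal cord RNA. Hoxc10, a gene of the lumbar cord, lay between 49.2 and 63.4 CPM. Hoxd11 was at 0.628 CPM in E5386 against 2.38 to 14.8 CPM elsewhere, and Hoxc11 at 0.574 against 1.90 to 12.4 CPM. Both were picked after their values were seen, and whether the cord level differed between libraries was not tested. Several libraries stood apart in markers of other tissues. The 26 skeletal muscle genes summed to 1440 CPM in E5386 and 2087 CPM in E5642 but to 176 to 197 CPM elsewhere, and the 18 liver genes to 824 CPM in E6732 but to 5.86 to 16.0 CPM elsewhere. E5386 was also lowest in Schwann cell genes (7 genes, 687 against 891 to 1486 CPM; Prx, a protein of peripheral myelin, 1.28 against 38.7 to 143 CPM) and in fibroblast genes (10 genes, 169 against 273 to 634 CPM).

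Most of the adipocyte genes were high in a single library, control E5386. All 10 members summed to 301 CPM there, 233 CPM in E5642, 205 CPM in E6578 and 36.3 to 113 CPM in the other 5 libraries. Much of this sum was Car3 and Plin4, which followed other patterns, and the remaining 8 members summed to 183 CPM in E5386 and to 1.01 to 7.19 CPM elsewhere. Fabp4, Adipoq, Plin1, Cfd, Cidec and Ucp1, 6 of the 10 members, were at least 2-fold above every other library in E5386, and none of the 10 was so in any other library. Of the 21795 genes with 10 counts in some library, 10.1% were highest in E5386 0.220% were at least 2-fold above all the others there and 0.445% at least 2-fold below all the others with each of these above 3 counts, the last with no member among them. Since the members were chosen with these levels known, nothing is read from the 6.

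**Figure D1:**
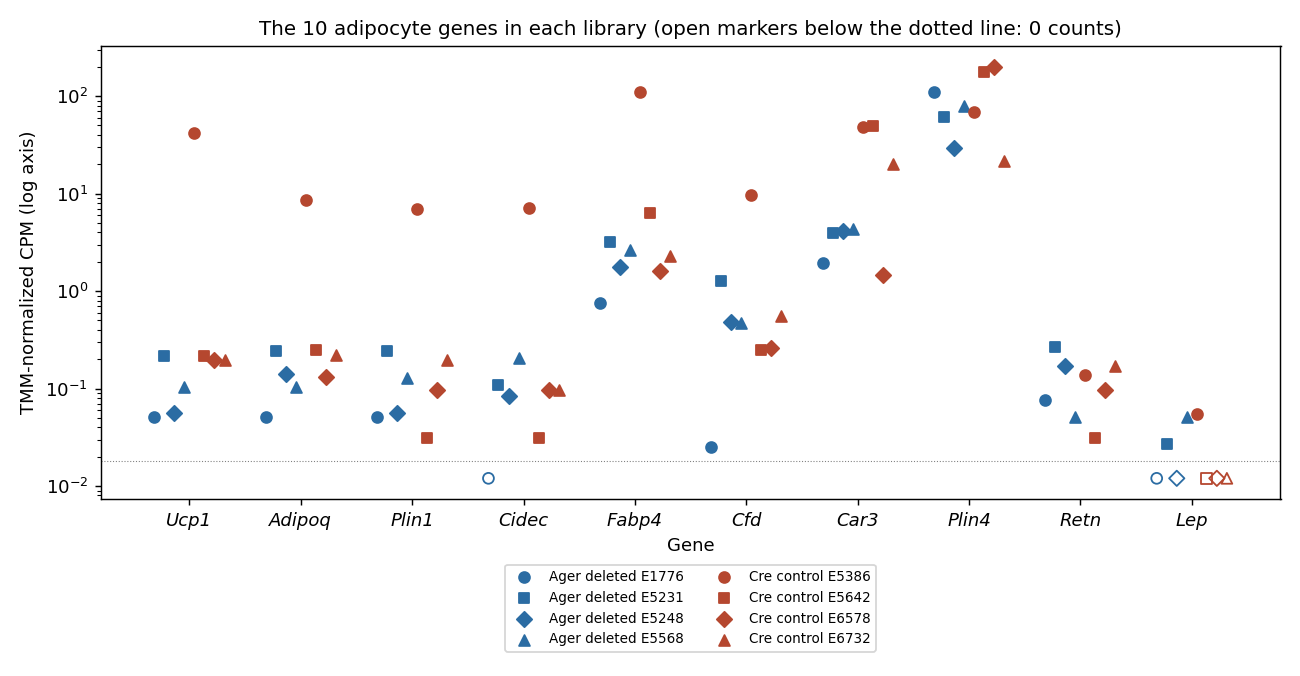
TMM-normalized CPM (log axis) of the 10 adipocyte genes, a marker for each of the 8 libraries, blue for Ager deleted and red for Cre control; open markers stand for 0 counts. Ucp1 was at 42.1 CPM in control E5386 and at 0.216 CPM or less elsewhere, while Car3, Plin4, Retn and Lep followed other patterns.

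Ucp1, the heat-producing uncoupling protein and the defining brown fat gene, was at 0.0507 CPM in E1776, 0.215 CPM in E5231, 0.0564 CPM in E5248 and 0.103 CPM in E5568, all with Ager deletion. Control E5386 stood at 42.1 CPM, whereas E5642 stood at 0.216, E6578 at 0.195 and E6732 at 0.194 CPM, and values below keep this order of mice. E5386 was thus 195-fold above the next library, with 1542 counts against 2 to 8 counts elsewhere, and the other 3 controls overlapped the Ager-deleted mice.

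Among the members, the lipid droplet genes Plin1 and Cidec behaved like Ucp1, while the perilipin Plin4 did not. Plin1, the perilipin that gates lipolysis at the adipocyte droplet, was at 0.0507, 0.242, 0.0564 and 0.129 CPM under Ager deletion and at 6.88, 0.0308, 0.0974 and 0.194 CPM in the controls. Cidec, which fuses droplets and favours large ones, was at 0, 0.108, 0.0846 and 0.207 CPM under Ager deletion and at 7.10, 0.0308, 0.0974 and 0.0972 CPM in the controls. In both genes a single control was high, 28.4-fold (Plin1) and 34.4-fold (Cidec) above the next library, and the remaining libraries lay at or near the floor.

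Adipoq encodes adiponectin, a hormone secreted by white and brown adipocytes. Its levels were 0.0507, 0.242, 0.141 and 0.103 CPM under Ager deletion and 8.63, 0.247, 0.130 and 0.219 CPM in the controls. Cfd encodes adipsin (complement factor D), a secreted protease of the alternative complement pathway, and was at 0.0254, 1.27, 0.479 and 0.465 CPM under Ager deletion and at 9.62, 0.247, 0.260 and 0.559 CPM in the controls. The high library for both was E5386, 35.0-fold (Adipoq) and 7.60-fold (Cfd) above the next; without it the Cfd levels of the controls lay inside the range of the Ager-deleted mice.

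Fabp4, the fatty acid-binding protein of adipocytes, is also made by capillary endothelium and macrophages. It was at 0.761, 3.20, 1.75 and 2.63 CPM under Ager deletion and at 109, 6.38, 1.59 and 2.28 CPM in the controls. Control E5386 stood 17.1-fold above E5642, which in turn was above every Ager-deleted mouse, and the other pair of controls lay within their range. E5386 and E5642 were also the libraries high in skeletal muscle genes.

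Lep and Retn, the hormone genes of white adipocytes in mice, did not share this pattern. Lep (leptin) had 0, 1, 0 and 2 counts in the Ager-deleted mice and 2, 0, 0 and 0 in the controls, at or under the floor in all 8 libraries. Retn (resistin) was at 0.0761, 0.269, 0.169 and 0.0516 CPM under Ager deletion and at 0.137, 0.0308, 0.0974 and 0.170 CPM in the controls, with at most 10 counts. The groups overlapped and E5386 was not the highest for Retn. In E5386 the 2 counts of Lep gave 0.0546 CPM (exact Poisson interval 0.00662 to 0.197 CPM) beside 8.63 CPM of Adipoq (7.71 to 9.64 CPM).

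Per 100 Adipoq counts, E5386 held 488 counts of Ucp1 (95% exact binomial interval 432 to 553), 1.58 of Retn (0.510 to 3.73) and 0.633 of Lep (0.0763 to 2.31). In the other 7 libraries summed, 37 counts of Ucp1 stood beside 41 of Adipoq, or 90.2 per 100 (56.3 to 144), and 32 of Retn, or 78.0 per 100 (47.6 to 127). Relative to Adipoq, E5386 thus held more Ucp1 and less Retn than the other libraries, where these genes were at or near the floor. Retn itself, at 0.137 CPM in E5386, lay within the range of the others (0.0308 to 0.269 CPM). The Lep ratio of the others was 7.32 per 100 (1.45 to 22.9), which overlapped that of E5386. Intervals of the others pool 7 mice and hold no spread between animals. Elovl3, another brown fat gene, was also high in E5386, with 114 counts against 0 to 6 elsewhere. It did not share the higher ratio of Ucp1. Its ratio was 36.1 per 100 Adipoq counts in E5386 (28.9 to 44.8) and 43.9 in the others (23.7 to 78.1), and the intervals overlapped. Cidea per 100 Cidec counts was lower in E5386, at 292 (254 to 338), than in the others, at 2983 (1971 to 4737), where Cidea was present in every library and Cidec at or near the floor. The ratios compare libraries and not conditions.

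Levels between genes were compared as CPM per kb of the longest principal coding transcript. In E5386, Fabp4 was highest at 122 CPM per kb, followed by Car3 (28.6), Ucp1 (25.7), Plin4 (12.0), Cfd (10.4), Adipoq (6.68), Cidec (4.13), Plin1 (2.44), Retn (0.120) and Lep (0.0168). With a single library there is no spread between animals behind this order. Divided by all annotated exon bases instead, which for Fabp4 cover the whole span of the gene, Fabp4 fell to 24.3 CPM per kb and Ucp1, at 25.7, came first.

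Car3 encodes carbonic anhydrase 3, which is abundant in adipocytes, skeletal muscle and liver. It was at 1.93, 3.90, 4.12 and 4.36 CPM under Ager deletion and at 48.0, 49.1, 1.46 and 20.0 CPM in the controls. All controls but E6578 were above every Ager-deleted mouse, and E6578 was below all of them. The high controls were E5386, high in adipocyte and muscle genes, E5642, high in muscle genes, and E6732, high in liver genes. The part of these tissues in the Car3 level was not tested. E5642 was above E5386 after TMM scaling but not by library size alone (46.9 against 48.0 CPM).

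Plin4, a perilipin of nascent droplets in adipocytes and muscle, was at 110, 60.5, 29.5 and 78.3 CPM under Ager deletion and at 69.2, 177, 201 and 21.5 CPM in the controls. It was expressed in every library, the groups overlapped, and E5386 lay in mid-range. Plin4 overlaps Hdgfl2 on the opposite strand. The kit was stranded, but the strand setting of the counting is not given in the sources used here, so reads of the pair may not be fully separated. Hdgfl2 ranged only from 61.4 to 79.2 CPM. Across the 8 libraries, Plin4 had a Pearson's r of log2(CPM + 1) of 0.02 with Fabp4, against 0.94 to 0.97 for Adipoq, Plin1, Cfd, Cidec and Ucp1. Those 5 values rest on E5386: without it they ranged from 0.08 (Plin1) to 0.80 (Adipoq). The genes nearest to Plin4, chosen after their values were seen, were Rhou (r = 0.99), Gm37242 (0.98), Nde1 (0.97), Stim1 (0.97) and Ttyh1 (0.96). Gm37242 was low in every library, at 0.219 to 0.401 CPM.

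The other genes of the adipocyte programme were taken as 60 genes in 4 lists. Of these, 12 were at least 2-fold above every other library in E5386, against 0.220% of all genes with 10 counts in a library, and none was so in any of the other 7 libraries. Like the members, they were listed with results of these data known.

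**Figure D2:**
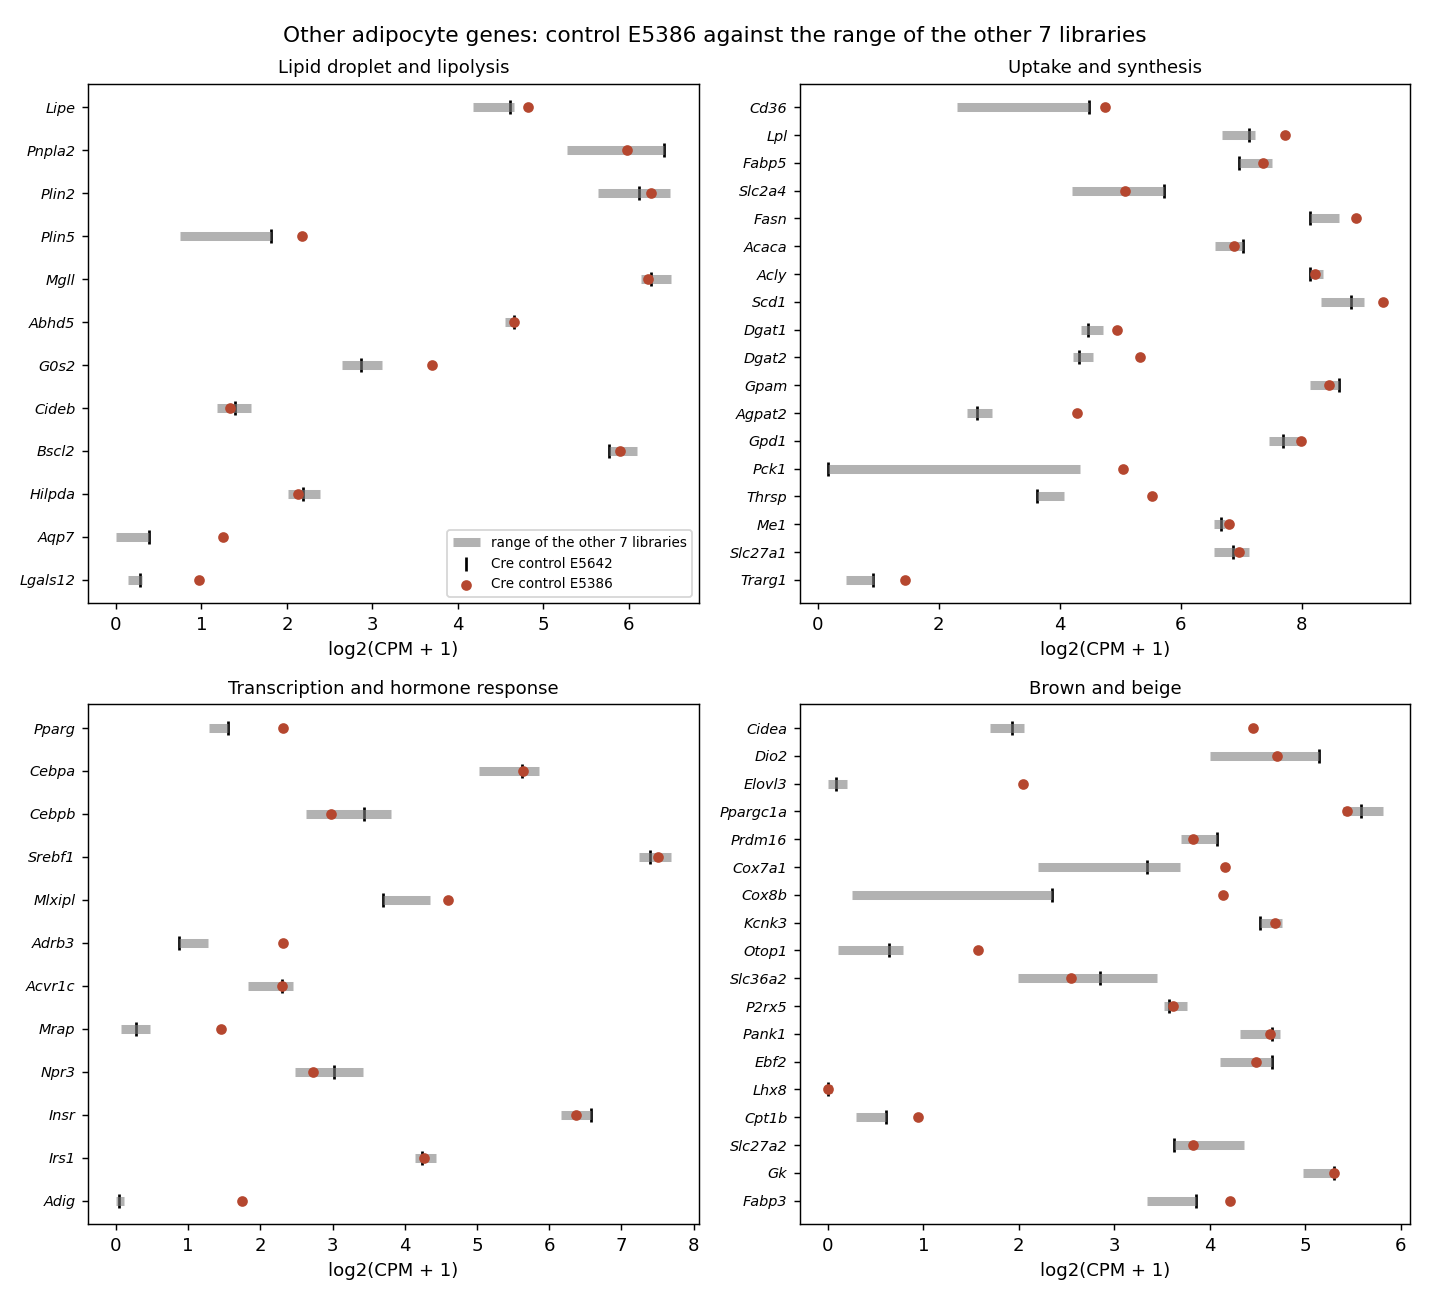
Level, as log2(CPM + 1), of the 60 other adipocyte genes in 4 panels by role; the red point is control E5386, the grey bar the range of the other 7 libraries and the black tick control E5642. Cidea, Elovl3, Cox8b, Adig, Agpat2 and Thrsp stood clear of the bar, while Dio2, Ppargc1a and Prdm16 lay on it.

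Among the 18 brown and beige genes, 4 were at least 2-fold above all other libraries in E5386. Cidea, a droplet protein that is high in brown fat, was at 20.8 CPM against 2.24 to 3.15 CPM. Elovl3, which elongates fatty acids in active brown fat, was at 3.11 against 0 to 0.146 CPM. Otop1, a proton channel found in brown fat, was at 1.97 against 0.0761 to 0.729 CPM.

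The fourth, Cox8b, a cytochrome oxidase subunit of brown fat, heart and muscle, was at 16.6 CPM in E5386, 4.07 CPM in E5642 and 0.195 to 0.465 CPM in the other 6 libraries. Cox7a1, the related subunit of the same tissues, was at 16.8 against 3.61 to 11.9 CPM. Both are also muscle genes, and muscle genes were high in E5386 and E5642. Ucp1 and Cidea differed from them in that E5642 (0.216 and 2.81 CPM) lay within or next to the range of the libraries low in muscle genes.

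Several regulators and enzymes of brown adipocytes were no higher in E5386 than elsewhere. Dio2, the deiodinase that activates thyroid hormone, was at 25 against 15.0 to 34.4 CPM. Ppargc1a, the coactivator of mitochondrial biogenesis, was at 42.4 against 41.0 to 55.1 CPM, and Prdm16, a transcription factor of the brown lineage, at 13.2 against 12.0 to 15.8 CPM. All 3 were expressed in every cord library. Kcnk3 (24.6 against 22.1 to 26.0 CPM) and Gk (38.3 against 30.4 to 38.9 CPM), among the most abundant of the list, also lay within range, and Lhx8 had at most 1 count.

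Of the 12 lipid droplet and lipolysis genes, Aqp7, the glycerol channel of adipocytes (1.39 against 0 to 0.308 CPM), and Lgals12, an adipocyte galectin (0.956 against 0.101 to 0.232 CPM), were at least 2-fold above all others in E5386. Those most abundant in the cord, Mgll (73.8 against 69.8 to 89.0 CPM), Plin2 (75.8 against 48.9 to 88.7 CPM) and Bscl2 (58.6 against 53.7 to 67.2 CPM), were within range. Of the lipases, Pnpla2, which starts lipolysis, was at 61.8 against 37.7 to 83.9 CPM, while Lipe, hormone-sensitive lipase, was highest in E5386, at 27.2 against 17.1 to 24.3 CPM.

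Of the 18 uptake and synthesis genes, 12 were highest in E5386, beside 10.1% of all genes with 10 counts in a library. Agpat2, an acyltransferase of triglyceride synthesis, was at 18.6 against 4.55 to 6.35 CPM, and Thrsp, a lipogenic nuclear protein, at 44.9 against 11.3 to 15.8 CPM. The abundant Scd1 (646 against 317 to 520 CPM) and Fasn (473 against 280 to 390 CPM) were also highest there, whereas Gpam (347 against 280 to 390 CPM) was not. Pck1, which makes glycerol backbones in fat and glucose in liver, was at 31.9 CPM in E5386, 19.1 CPM in E6732, the library with liver genes, and 0.123 to 0.269 CPM elsewhere.

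Of the 12 genes of transcription and hormone response, 4 were at least 2-fold above all others in E5386. Pparg, the master regulator of adipocytes, was at 3.96 against 1.44 to 1.94 CPM. Adrb3, the adrenergic receptor of fat, was at 3.99 against 0.833 to 1.43 CPM. Mrap, which adipocytes use for melanocortin signalling, was at 1.75 against 0.0539 to 0.389 CPM, and Adig (adipogenin) at 2.35 against 0 to 0.0775 CPM.

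The abundant Srebf1 (181 against 151 to 205 CPM), Insr (81.5 against 70.9 to 94.9 CPM) and Cebpa (48.7 against 31.7 to 57.2 CPM) lay within the range of the other libraries. Of 9 receptors and partners of adipocyte hormones, 0 were highest in E5386, beside 10.1% of all genes with 10 counts in a library. With so few genes, nothing is read from the 0. Lepr, the leptin receptor, was at 2.87 CPM in E5386 and at 4.19 to 12.5 CPM elsewhere. Adipor1 (114 against 105 to 138 CPM) and Adipor2 (220 against 194 to 290 CPM), the adiponectin receptors, were within range, as were C3 (499 against 304 to 597 CPM) and Il6st (287 against 248 to 337 CPM).

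Within 4 gene families, the forms at least 2-fold above all other libraries in E5386 were Fabp4, Plin1, Cidea, Cidec and Ucp1. Among the fatty acid-binding proteins, Fabp5 (164 against 123 to 181 CPM) and Fabp7 (101 against 65.7 to 140 CPM), the forms of neural tissue, were present in every library. Fabp1, the liver form, was at 15.9 CPM in E6732 and had at most 2 counts elsewhere. Fabp3, the heart and muscle form, was at 17.5 CPM in E5386, 13.5 CPM in E5642 and 9.12 to 10.8 CPM elsewhere.

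Fabp4 lies on the minus strand of chromosome 3 (10204088 to 10208576, GRCm38), 20.2 kb from Pmp2, the form of Schwann cell myelin. Pmp2 went the other way: it had 0 counts in E5386, the library with the least Schwann cell RNA, and was at 0.304 to 1.79 CPM elsewhere. Fabp9 and Fabp12, which flank Fabp4 at 6.80 and 35.6 kb, had at most 2 counts in any library, as did Fabp6. Fabp2 was at 0.219 CPM or less.

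**Figure D3:**
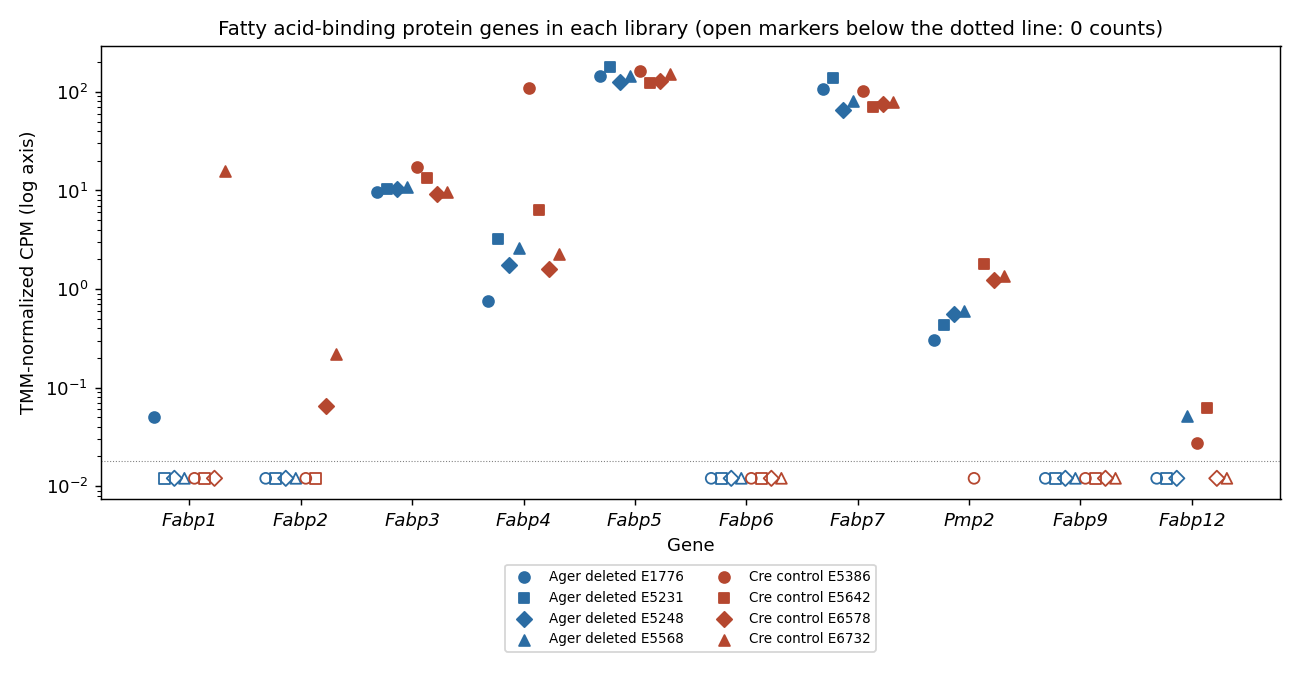
TMM-normalized CPM (log axis) of the 10 fatty acid-binding protein genes, a marker for each library, blue for Ager deleted and red for Cre control; open markers stand for 0 counts. Fabp4 was high in E5386 (109 CPM), Fabp1 in E6732 (15.9 CPM), and Fabp5 and Fabp7 were present in every library.

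In the other families, Plin2 and Plin3 (64.6 against 59.2 to 69.4 CPM) were within range in E5386, and Plin5, the perilipin of oxidative tissues, was at 3.52 CPM there, 2.53 CPM in E5642 and 0.680 to 1.24 CPM elsewhere. Cideb, the liver member of the CIDE family, was at 1.53 against 1.27 to 2.00 CPM. Ucp2 (133 against 112 to 206 CPM) and Ucp3 (9.23 against 6.34 to 16.9 CPM), the paralogs of Ucp1, were within range, and Ucp3, the muscle form, was highest in E5642.

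The comparison of genotypes asks whether the Cre-controls differed from the Ager-deleted mice. Only 4 of the 10 members (Fabp4, Plin4, Cfd and Car3) passed the filter on low counts that the deposited normalized values also follow. The other 6 were too low in all but 1 library or in all 8. None of the 4 passed an adjusted p of 0.05 in the edgeR exact test, in which 14 of 19470 genes (0.0719%) were called. Of the 4, 2 (Car3 and Fabp4) had an unadjusted p under 0.05, and 829 of all genes did. The quasi-likelihood test and limma-voom also called 0 of the 4, and DESeq2 called neither Car3 nor Plin4 and gave no adjusted p for the rest.

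Car3 was higher in the Cre-controls by 3.05 on the log2 scale (SE 0.770), at 29.6 ± 23.1 against 3.58 ± 1.12 CPM (mean ± SD, n = 4; adjusted p = 0.0604, edgeR exact test). The difference for Fabp4 was 3.83 (log2, SE 1.27), at 29.8 ± 52.8 against 2.09 ± 1.07 CPM (adjusted p = 0.279, edgeR exact test). The SD of the controls exceeded their mean for Fabp4, as it did for Cfd (2.67 ± 4.63 against 0.559 ± 0.516 CPM; log2 fold change 2.25, SE 1.19). Plin4 was at 117 ± 85.6 against 69.5 ± 33.5 CPM (log2 fold change 0.75, SE 0.589). The median over the 4 was 2.65, or 0.83 without E5386, beside -0.0069 and -0.0035 over all genes tested, and no member had groups that did not overlap (3.88% of tested genes did).

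With common and tagwise dispersions, which called 78 genes (0.401%), Car3 (adjusted p = 0.00166) and Fabp4 (adjusted p = 0.0215) passed in the edgeR exact test. The Fabp4 value rests on E5386. Without that library its log2 fold change was 0.72 (adjusted p = 1.00, edgeR exact test), and without E5386 and E5642 it was -0.09. Cfd changed sign, to -0.63, without E5386. For Car3 the log2 fold change was 2.73 without E5386 (adjusted p = 0.0845, edgeR exact test) and 1.6 without both libraries high in muscle genes (adjusted p = 1.00). The controls left in the latter fit were E6578, at 1.46 CPM of Car3, and E6732, the library with liver genes, at 20.0 CPM.

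**Figure D4:**
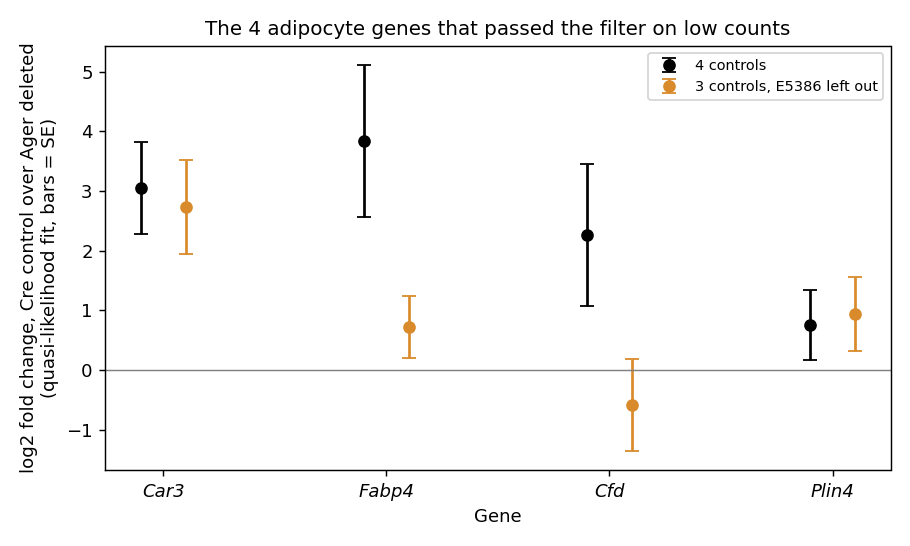
The log2 fold change (Cre control over Ager deleted) of the 4 adipocyte genes that passed the filter, from edgeR's quasi-likelihood fit with SE bars, in black with 4 controls and in orange without control E5386. Fabp4 went from 3.84 to 0.72 and Cfd from 2.27 to -0.59, while Car3 went from 3.05 to 2.73.

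Fitted without the filter, Ucp1 differed by 6.59 on the log2 scale (adjusted p = 0.0886, edgeR exact test), Cidec 4.15, Adipoq 4.06, Plin1 3.86 and Retn -0.33. The first 4 values come from the single high control, and no fold is given for Lep. The mean log2(CPM + 1) over the 10 members was 1.11 ± 0.16 in the Ager-deleted mice and 1.95 ± 1.19 in the controls (SD, n = 4). The libraries stood at 0.95, 1.29, 1.00 and 1.20 in the first group and at 3.69, 1.71, 1.15 and 1.24 in the second. Without E5386 the difference dropped from 0.83 to 0.25.

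Of the 60 other adipocyte genes, 54 were tested and 0 passed the edgeR exact test, which called 0.0719% of all tested genes. The quasi-likelihood test, DESeq2 and limma-voom also gave 0. In the exact test 9 of the 54 had an unadjusted p under 0.05, beside 829 of all 19470 genes. The median log2 fold change of the 54 was 0.14. Scd1, the desaturase of fatty acid synthesis, was the only one of the 54 whose groups did not overlap, beside 3.88% of all tested genes. It was at 447 to 646 CPM in the controls and 317 to 426 CPM under Ager deletion (adjusted p = 0.516, edgeR exact test). Common and tagwise dispersions added Cd36, a fatty acid transporter of fat, muscle and endothelium (log2 fold change 1.33, adjusted p = 0.0253), and Cox8b (4.05, adjusted p = 0.00708). Both were highest in E5386 and E5642, Cd36 at 25.9 and 21.4 CPM against 3.91 to 9.93 CPM. Of the 26 muscle genes, 25 were tested and 3 (Ckm, Myh4 and Atp2a1) passed the edgeR exact test, beside 0.0719% of all tested genes. With common and tagwise dispersions 19 passed, beside 0.401%, and all of these were higher in the controls.

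**Figure D5:**
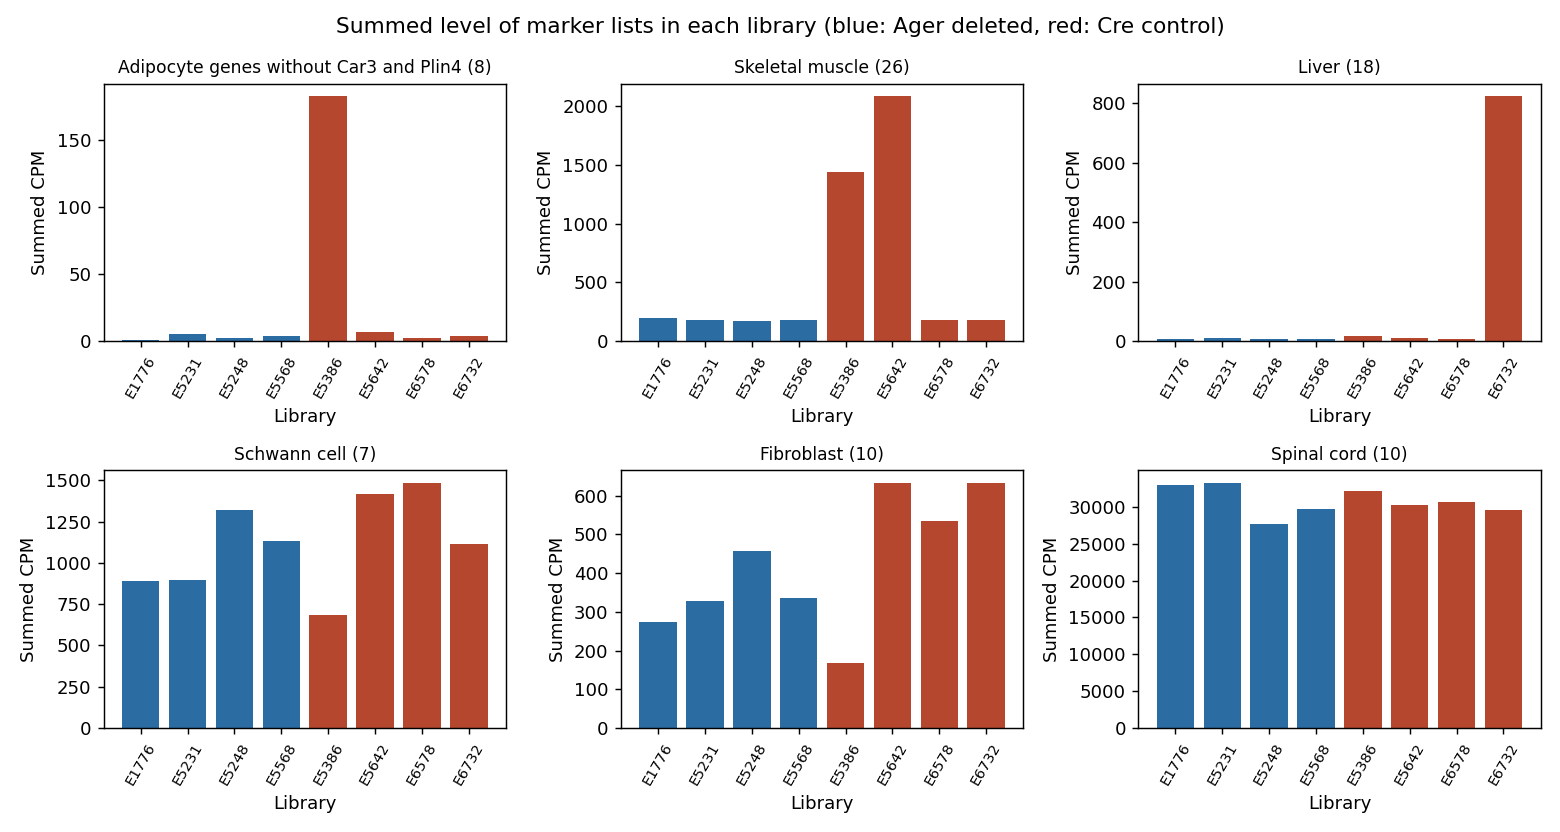
Summed TMM-normalized CPM of 6 marker lists in each library, with the number of genes in brackets; bars start at 0, blue for Ager deleted and red for Cre control. The 8 adipocyte genes other than Car3 and Plin4 peaked in E5386 (183 CPM, against 301 CPM for all 10, which reached 233 CPM in E5642), muscle genes in E5386 and E5642, liver genes in E6732, and Schwann cell and fibroblast genes were lowest in E5386.

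The tested genes outside all lists whose log2(CPM + 1) was most like the mean over the members were Lyzl4 (Pearson's r = 0.96 over 8 libraries), Etfa (0.95), Acaa2 (0.95), Mtfmt (0.95), C1qtnf9 (0.94), Cd300lg (0.93), Aoc3 (0.93), Knop1 (0.92), Gm13031 (0.92) and Gm15721 (0.91). Lyzl4 was low in every library, at 0.519 CPM in E5386 and 0.355 to 0.432 CPM elsewhere. Etfa, which passes electrons from fatty acid oxidation, was at 63.5 CPM in E5386 and 43.1 to 53.0 CPM elsewhere. Acaa2, the thiolase of mitochondrial fatty acid oxidation, was at 49.6 against 27.5 to 35.8 CPM. Without E5386, r was between -0.44 (Gm13031) and 0.94 (Cd300lg).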

How the data were processed

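Bulk polyadenylated RNA of lumbar spinal cord was sequenced from 8 mice. The authors deposited raw read counts per gene (trimming, STAR 2.7.3a on mm10, featureCounts of Subread 1.6.3 on GENCODE M25) and log2 TMM-normalized CPM made in edgeR; no replicates were pooled. The submitters' notes give Trimmomatic 0.36 and edgeR 3.26.8. All values here come from the counts, and the log2 table only served to check the filter. Counts were filtered with filterByExpr (minimum 10) and TMM-normalized. They were tested with the two-sided exact test of edgeR 4.0.16 (R 4.3.3, dispersions without a design, Benjamini-Hochberg over 19470 genes, threshold 0.05). Each SE is the absolute log2 fold change of the quasi-likelihood fit divided by the square root of its F statistic. Log2 levels use a pseudocount of 1 CPM.

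The members and gene lists were chosen with earlier results of these data known. Genes named are the members, their 4 families, listed genes called, the 3 most abundant of each list of adipocyte genes and of hormone receptors, and the 10 tested genes closest to the member mean; list genes at least 2-fold above all other libraries in E5386, and those set beside them, were chosen after their values were seen. Positions and lengths are from GENCODE M21 (GRCm38), matched by symbol. Nothing in the labels says how mice relate by litter or batch. No pair of libraries agreed within sampling noise (chi-square per degree of freedom 17.3 to 131). Tests were checked on simulated data. Alternatives (other normalizations, filters, dispersions, DESeq2 1.42.0, limma-voom 3.58.1, each mouse left out) are given below; leaving out E5386 and E5642 together, and the member mean without Plin4, were chosen after seeing the data. A gene of the Schwann cell list is not reported here.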

Additional observations from a re-analysis of the deposited data

Results flagged for a closer look

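In 7 of 22 sets of 4 libraries (10 members and their mean, in each genotype), the end library stood far from the rest on the log2(CPM + 1) scale. The gap to the nearest library as a share of the whole range was 0.995 for Ucp1, 0.97 for Cidec, 0.954 for Adipoq, 0.928 for Plin1 and 0.896 for Cfd, in each case with control E5386 at the top. It was 1.00 for Lep, where E5386 had 2 counts and the other controls 0, which is under the floor of 3 counts. In the Ager-deleted mice it was 0.852 for Car3, with E1776 (1.93 CPM) below the other 3 (3.90 to 4.36 CPM). Chance gives such a gap in about 1 in 20 groups, but the members were chosen with the levels of E5386 known, so these gaps restate those levels and are no support for them. Fabp4 was also highest in E5386, but E5642 narrowed its gap.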

How the results depend on the processing

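No paired analysis was possible because the labels give no replicate numbers shared between the groups. Over all genes the 14 calls became 48 at a threshold of 0.10, 78 with dispersions estimated as common and tagwise, 1 in the quasi-likelihood test, 25 in DESeq2, 1 in limma-voom, 9 with a minimum of 30 counts, 67 without E5386 and E5642, and between 3 (without E5231) and 98 (without E6578) with a mouse left out; it was 53 without E5248, 8 without E5568, 72 without E5386, 8 without E5642 and 89 without E6732. The 0 calls among the members became 1 (Car3) at 0.10 and 2 (Fabp4 and Car3) with the common and tagwise estimates, and ranged from 0 to 2 with a mouse left out, with 2 (Fabp4 and Car3) without E6578 or E6732. The 0 calls among the other adipocyte genes became 2 with common and tagwise dispersions, 1 (Pck1) with no filter and 1 (Pck1) without E5386 and E5642, and ranged from 0 to 3 with a mouse left out, with 1 (Pck1) without E5642, 3 (Cd36, Pck1 and Cox8b) without E6578 and 3 (Pnpla2, Cd36 and Cox8b) without E6732. The log2 fold change of Cfd turned to -0.63 without E5386 and -0.42 without E5386 and E5642, (3.04 at most, without E5231), and that of Fabp4 to -0.09 without both. DESeq2 gave no adjusted p for Fabp4 and Cfd. Over its alternatives Car3 ranged from 1.6 to 3.45 (adjusted p 6.09e-17 to 1.00, edgeR, DESeq2 or limma) and Plin4 from 0.36 to 1.10. The lowest adjusted p of Car3 came from leaving out E6578, the control with the least Car3 (1.46 CPM). The next lowest was 0.00166 (edgeR exact test, common and tagwise dispersions). The difference in the member mean ranged from 0.25 (without E5386) to 1.10 (without E6578) with a mouse left out, and was 0.08 without E5386 and E5642. At this depth Lep could not be told from 0 in any library.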

Other observations

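Of the 48 genes at least 2-fold above every other library in control E5386, 18 were adipocyte genes of the lists (6 members and 12 others) and 29 were in no list. Among the latter, chosen after their values were seen, were Tmem45b (1.72 against 0 to 0.127 CPM), Cyp2b10 (1.48 against 0 to 0.219 CPM), Aoc3, an amine oxidase of adipocytes and vessels (2.57 against 0.355 to 0.942 CPM), Ffar4, a fatty acid receptor of fat (0.382 against 0.0308 to 0.103 CPM), and Lncbate1, a long noncoding RNA of brown fat (0.328 against 0 to 0.0486 CPM, 12 counts). Gpihbp1, which anchors lipoprotein lipase in the capillaries of fat and muscle, was at 1.31 CPM in E5386, 0.894 CPM in E5642 and 0 to 0.121 CPM elsewhere. In the opposite direction 97 genes (0.445%) were at least 2-fold below every other library in E5386, each of these holding over 3 counts. Among them were Prx, Dcn, Hoxd11 and Hoxc11. By the same rule 168 genes were above all others in E5642 and 310 in E6732, and between 10 and 21 in each of the remaining 5 libraries; no member or other adipocyte gene was among these.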
